A study of Mus musculus with 20 samples.

Results

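The genes described here encode the nuclear subunits of the mitochondrial respiratory chain and of ATP synthase. They were chosen by symbol: Nduf followed by a, b, c, s or v and a digit, Sdha to Sdhd, symbols starting with Uqcr, Cox4 to Cox8 followed by a letter, and Atp5 followed by a letter. Of 13319 gene symbols counted in the series, 77 matched, and all 77 passed the filter on low counts that left 12907 genes for testing. Complex I (NADH dehydrogenase) had 34 of them, complex II (succinate dehydrogenase) 4, complex III (cytochrome bc1) 8, complex IV (cytochrome c oxidase, with Ndufa4 and its paralog Ndufa4l2 placed there) 16 and complex V (ATP synthase) 12. The remaining 3 are not subunits of these enzymes and are kept apart: Atp5s, a coupling factor B-like gene, Atp5sl, known as an assembly factor of complex I, and Cox4nb, an older symbol of Emc8, which codes for a protein of the endoplasmic reticulum membrane complex. For the subunits encoded by mitochondrial DNA 26 symbols were looked up, and none was among the genes tested, so these subunits are not described.

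The respiratory chain passes electrons from NADH and succinate through complexes I to IV to oxygen and pumps protons across the inner mitochondrial membrane, and ATP synthase uses the return of the protons to make ATP. Subunit genes lie in the nucleus apart from a small set on mitochondrial DNA, and nuclear respiratory factors, GABP, estrogen-related receptors and the coactivators of the Ppargc1 family are known to act on many of them. Thyroid hormone is known to raise oxygen use in liver, and glucagon is known to raise hepatic glucose output, a process that draws on mitochondrial ATP.

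RNA was sequenced from the livers of 20 individual male mice on a western diet, 4 in each of 5 groups that had received daily treatment for 16 days. The groups were control, glucagon, T3 (triiodothyronine, the receptor-active form of thyroid hormone), both hormones together (the combination), and one molecule that joins them (the hybrid). The hybrid libraries carry only a code in the labels and were taken as the hybrid by elimination; the labels give no dose, age or strain and do not say what the control mice received. Total counts were 6091917 to 7996156 per library in the T3 group and 8791923 to 23195658 in the others, and the genes described here took 0.973% to 1.58% of them. The T3 libraries were all sequenced in lane 5 and the other groups in lanes 1 to 4, so T3 alone and its lane cannot be told apart. Summed markers of hepatocytes were high in every library (10 of 10 measured, none at 0, 127924 to 233498 CPM, counts scaled to a common library size).

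Some libraries stood apart. The library control 1 differed from the other 3 controls by more than 1 on the log2 scale in 33.8% of the 77 genes (15 higher, 11 lower), against 19.3% of all genes tested, while no other library passed 9.09% of the 77. Cox5a stood at 14.1 normalised CPM in control 1 and at 95.2, 180 and 114 in the other controls. Atp5k stood at 130 there against 527, 766 and 946, whereas Cox7b stood at 68.7 against 22.7, 17.5 and 21. Across the 77 genes the deviation of control 1 had a correlation of -0.40 with the GC content of the transcript, and across 11465 genes one of -0.61, given here as a description across genes that share a library. Skeletal muscle markers (18 of 20 summed, respiratory chain genes left out, none at 0 in every library of a group) summed to 3221 CPM in glucagon 3, 1080 in control 2, 771 in hybrid 4 and 385 in combination 4, and to 71.1 or less in the other 16 libraries. Calls that ended without control 1, or without control 2 and glucagon 3, are named with the gene or where the counts without single libraries are given.

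**Figure D1:**
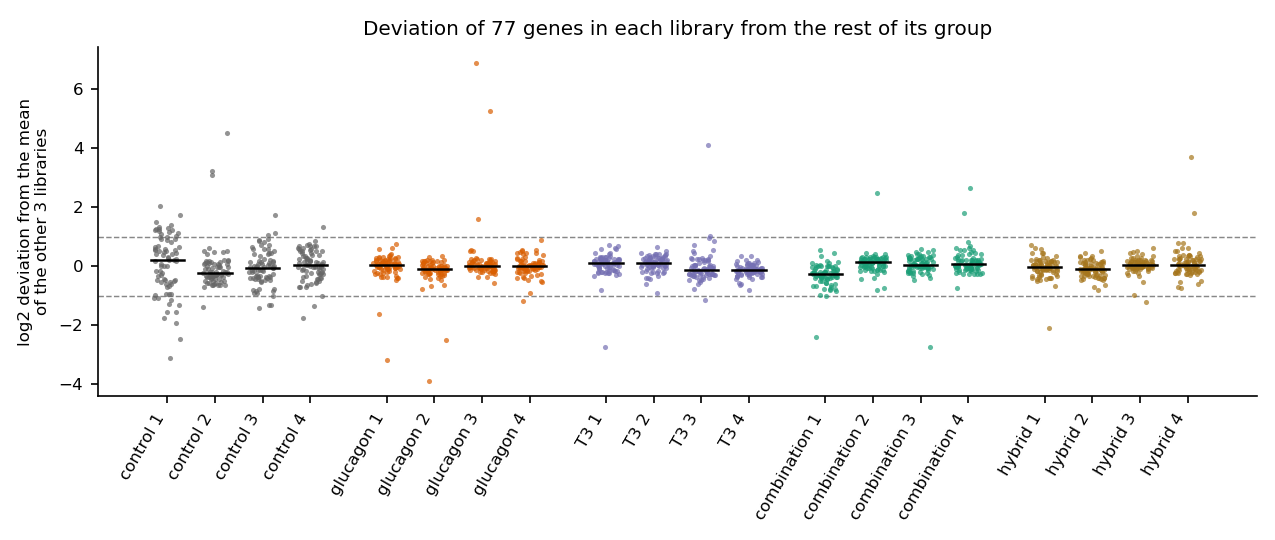
Deviation of each of the 77 genes in each library from the mean of the other 3 libraries of its group (log2 of normalised CPM + 0.5; one point per gene, black line the median, dashed lines at 1 and -1). Control 1 has 26 of its genes beyond the dashed lines, and the far points of control 2 and glucagon 3 include the muscle isoforms Cox6a2 and Cox8b.

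Few of the genes changed, and those that did changed by small amounts. A gene is called here where the quasi-likelihood test of edgeR gave a p under 0.05 after Benjamini-Hochberg adjustment across the 12907 genes. Changes are log2 ± SE, and levels are normalised CPM (scaled by TMM, a factor that allows for differences in library composition). The SE rests on a spread pooled over the 5 groups, and the controls varied more than the other groups. It can therefore understate the error of a change against control. Against control, glucagon called 12 of the 77 (15.6%), where 21.2% of all genes tested were called: 11 were higher, beside 9.23% of all genes, and 1 was lower, beside 11.9%. T3 called 7 beside 18% of all genes, 3 of them higher (7.31% of all genes) and 4 lower (10.6%). The combination called 12 beside 20.1%, 11 of them higher (9.23%) and 1 lower (10.9%). The hybrid called 7 beside 24.4%, 6 of them higher (11.2%) and 1 lower (13.2%). Fitted on the compared groups alone, glucagon called 0 of the 77, T3 0, the combination 1 (Atp5s) and the hybrid 3 (Ndufc1, Ndufa8 and Atp5s). Over all genes the calls fell too, to 976, 503, 918 and 1208, from 2732, 2317, 2598 and 3144 in the main fit. With the lane as a block in the 16 libraries of lanes 1 to 4, T3 called 12 (6 higher, 6 lower), a fit that adjusts the controls for lane but not the T3 libraries, all of lane 5. The 4 comparisons share the same control libraries. In either direction together each share lay below that of all genes. The 4 glucagon libraries lay above the 4 controls in 12 of the 77 genes, beside 8.7% of all genes, and below them in 1, beside 7.88%. The same counts were 3 (7.28%) and 4 (7.7%) for T3, 10 (8.79%) and 1 (7.86%) for the combination, and 6 (9.04%) and 1 (8.69%) for the hybrid. Of the 74 subunits, 4 (5.41%) differed by more than 1 on the log2 scale after glucagon, against 13.7% of all genes; after T3 4 did, after the combination 2 and after the hybrid 3, against 10.9%, 11.4% and 13.3% of all genes.

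**Figure D2:**
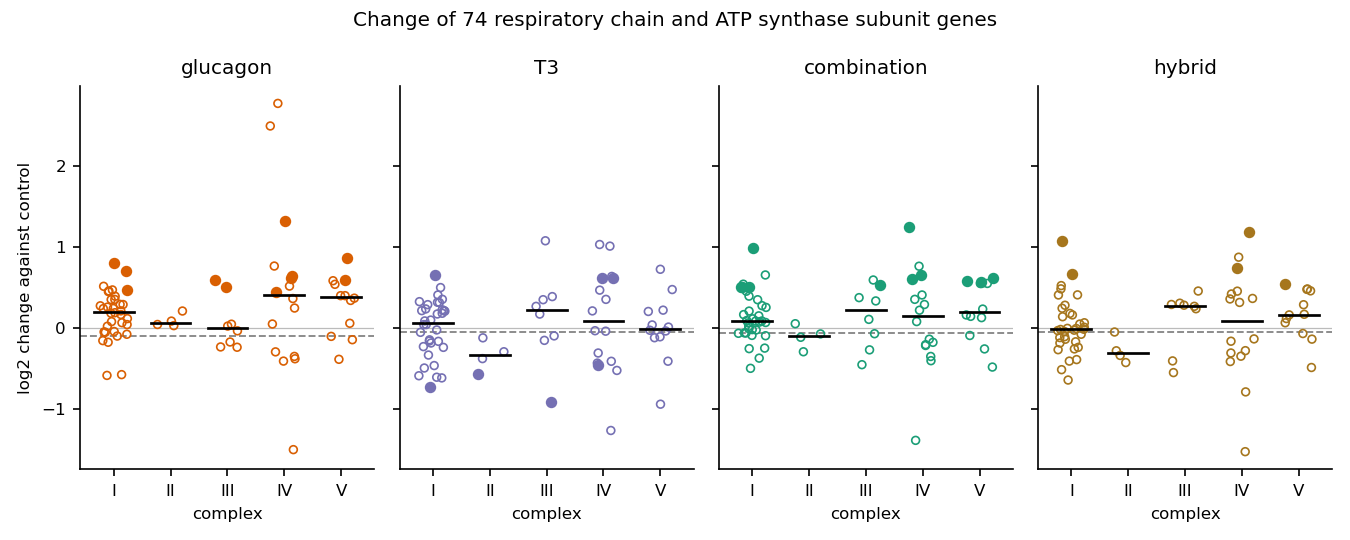
log2 change against control of 74 subunit genes by complex, 1 panel per treatment (filled points are called at an adjusted p under 0.05, open points are not, short lines are medians of a complex, the dashed line is the median of all genes tested). Most points lie between -1 and 1; the 2 highest open points in complex IV after glucagon are Cox8b and Cox6a2.

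The scaling of the libraries bears on direction. Alb, the albumin gene, took 7.49% to 18.2% of the counts of a library. With library totals in place of TMM the median change of all genes moved from -0.09 to -0.24 for glucagon, from -0.05 to 0.17 for T3, from -0.07 to 0.10 for the combination and from -0.05 to 0.24 for the hybrid. The calls among the 77 then became 4 higher and 2 lower for glucagon, 8 and 0 for T3, 19 and 1 for the combination and 25 and 1 for the hybrid. Over all genes 3123, 2229, 2555 and 3583 were called with library totals. With library totals the glucagon calls of Ndufc1 (0.0585), Ndufa8 (0.167), Uqcrc1 (0.138), Cox5b (0.1), Cox6a1 (0.214), Cox8a (0.15) and Atp5o (0.127) ended (values are adjusted p). Relative to the median of all genes the median subunit moved little between the scalings: it stood 0.31 above after glucagon with TMM and 0.32 with library totals. The same distance was 0.07 in both after T3, 0.17 and 0.18 after the combination, and 0.05 and 0.10 after the hybrid.

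Promoter sequence was examined for motifs of factors known to act on these genes, because several subunits were called together after glucagon. The share of the 77 called then (15.6%) was below that of all genes (21.2%). RefSeq windows on GRCm38.p6 were found for 63 of the 77 genes (69 windows), and the 250 bases upstream of each start site were searched on both strands. The NRF1 motif GCATGCGC was in 8.7% of these windows and in 2.26% of all 32851 windows, the GABP motif CCGGAAG in 15.9% and 6.91%, the CREB motif TGACGTCA in 5.8% and 1.55%, the estrogen-related receptor motif TCAAGGTCA in 1.45% and 0.387%, and the YY1 motif AAGATGGCG in 2.9% and 0.606%. The direct repeat known for the thyroid hormone receptor was in none of the 69 and in 0.0152% of all. All 12 genes called after glucagon had a window, and 3 of the 12 held a searched motif: Ndufa8 and Cox6a1 that of NRF1, and Uqcrfs1 that of CREB. Of the 63 genes, 6 held the NRF1 motif, 11 that of GABP and 4 that of CREB, most of them not called after glucagon. The 12 genes are part of the 63, and a link between motifs and calls was not tested. Cox6a1 also held a GABP match 16 bases upstream of the start. The stretches with the matches are shown 5′ to 3′ on the minus strand, with the matched letters in capitals; in Cox6a1 they are overlapping NRF1 matches on both strands. They cover 250 to 24 bases upstream of the RefSeq start for Cox6a1 (chr5:115348982-115349208), 30 to 1 for Ndufa8 (chr2:36049339-36049368) and 40 to 11 for Uqcrfs1 (chr13:30545327-30545356). GENCODE places the start of these genes further out by 23, 68 and 46 bases. A match is a string of letters and not a measured binding site.
Cox6a1: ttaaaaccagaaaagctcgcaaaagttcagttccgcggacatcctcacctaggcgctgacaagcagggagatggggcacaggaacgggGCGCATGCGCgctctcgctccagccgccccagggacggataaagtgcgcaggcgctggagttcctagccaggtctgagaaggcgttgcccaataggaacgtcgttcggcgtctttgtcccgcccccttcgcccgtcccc
Ndufa8: gcgcttgcgcgtcgctggagacGCATGCGC
Uqcrfs1: cggcgtcgcgcTGACGTCAcaaaccctgcg

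In complex I, which takes electrons from NADH, 3 of 34 genes rose after glucagon, 1 rose and 1 fell after T3, 4 rose after the combination and 2 rose after the hybrid. Over all genes the shares called higher were 9.23%, 7.31%, 9.23% and 11.2%, and 10.6% were lower after T3. Ndufc1, a small accessory subunit of the membrane arm (chr3:51404677-51408988), stood at 3.16, 5.84, 5.39 and 2.87 normalised CPM in the controls and at 7.82, 6.60, 7.76 and 7.85 after glucagon. It stood at 8.35, 9.97, 8.71 and 7.33 after the combination and at 8.65, 9.31, 10.2 and 8.12 after the hybrid. Every library of these 3 treatments lay above every control, while T3 (6.74, 8.52, 5.66 and 6.23) overlapped the controls. The rise was 0.80 ± 0.21 for glucagon (adjusted p = 0.00967 in edgeR), 0.99 ± 0.21 for the combination (0.00219) and 1.07 ± 0.21 for the hybrid (0.000909). It was called without any one library, but on the compared groups alone the glucagon and combination calls ended (0.111 and 0.058). Its transcripts share stretches of 50 bases with 134 other genes (5.25% of such stretches), so a part of its few counts could belong elsewhere. For T3 the change of 0.65 ± 0.21 (0.039) was not called without control 1 (0.107), control 4 (0.0903), T3 1 (0.0731), T3 2 (0.116) or T3 4 (0.0585).

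Ndufa8, an accessory subunit with paired cysteines (chr2:36036326-36049406), stood at 91.2, 120, 127 and 129 normalised CPM in the controls. It reached 174, 156, 162 and 157 after glucagon, 148, 157, 188 and 173 after the combination and 177, 181, 177 and 210 after the hybrid. The T3 libraries stood at 171, 133, 149 and 134, and none of the 16 treated libraries overlapped the controls. The changes were 0.47 ± 0.13 for glucagon (adjusted p = 0.0158), 0.51 ± 0.13 for the combination (0.0114) and 0.67 ± 0.13 for the hybrid (0.00116), each called without any one library, and 0.33 ± 0.13 for T3 (0.0976). Without control 1, control 2 and glucagon 3 together the glucagon and combination calls of Ndufa8 ended (0.141 and 0.0925), as they did on the compared groups alone (0.117 and 0.129).

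Ndufv1, the subunit that binds NADH and flavin (chr19:4007384-4012806), stood at 111, 159, 216 and 174 in the controls and at 278, 271, 263 and 265 after glucagon, with no overlap (0.71 ± 0.16, adjusted p = 0.00301; 0.0666 on the compared groups alone). It was also called after the combination (226, 254, 230 and 225; 0.50 ± 0.16, 0.0278), but not without control 1 (0.0593), combination 2 (0.0671) or combination 3 (0.0541). The hybrid libraries (243, 185, 227 and 222) overlapped the controls, and T3 (184, 208, 191 and 179) did too. Ndufa1, another small subunit of the membrane arm, was called after the combination (0.51 ± 0.16, 0.0287), and not without control 2 (0.0531), control 4 (0.0886), combination 2 (0.078) or combination 3 (0.0807); it was not called against control in the other treatments, and its differences from glucagon and from the hybrid were not called (0.364 and 0.931). Ndufb6 was called lower after T3 (-0.73 ± 0.24, 0.0399). Its controls stood at 102, 44.0, 42.1 and 39.0 and T3 at 30.4, 38.0, 38.1 and 30.2, and without control 1 the change was -0.28 (0.257); the call also ended without any one T3 library (0.0661 to 0.102). Ndufb6 shared 34.1% of its stretches of 50 bases with 1 other gene.

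**Figure D3:**
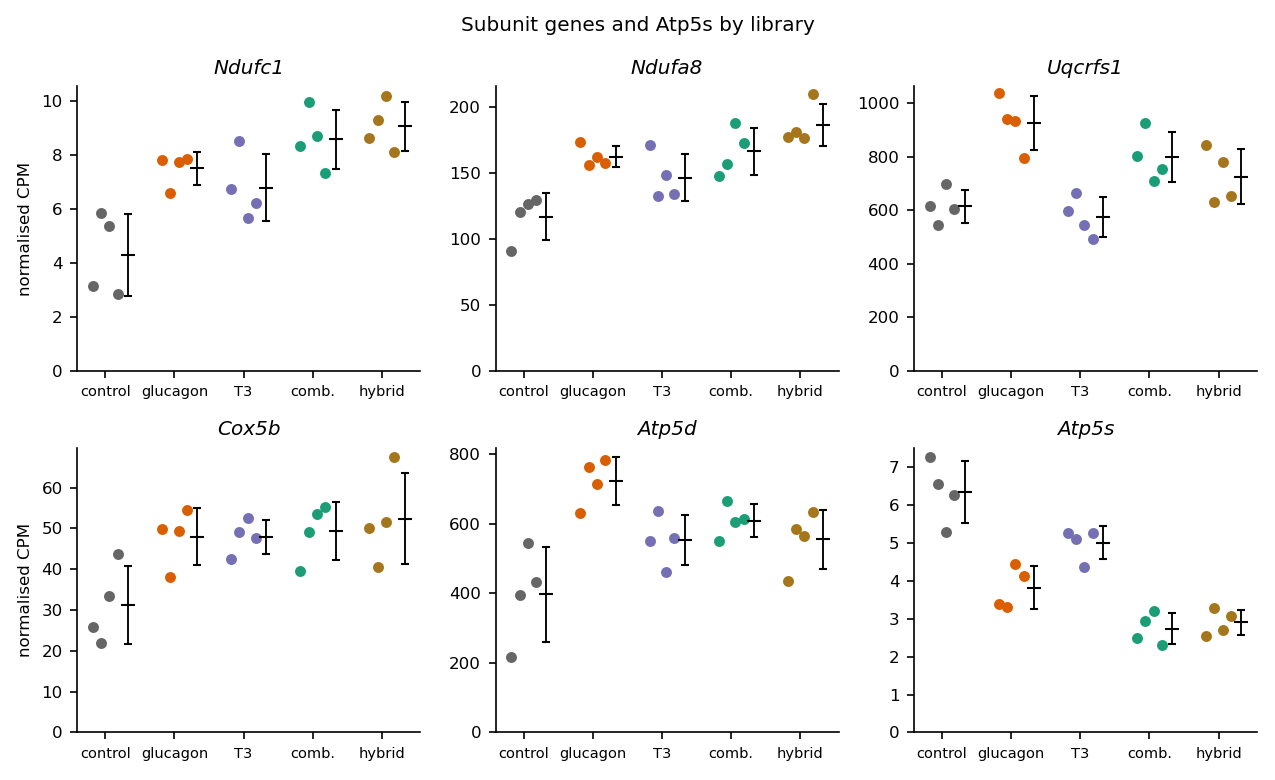
Normalised CPM of 5 subunit genes and of Atp5s in each library (4 points per group, bars are mean and SD, n = 4, axes start at 0). Ndufc1, Ndufa8, Uqcrfs1 and Atp5d lie above all controls after glucagon, Cox5b overlaps the controls in each group, and Atp5s lies below all controls in each treated group.

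In complex II, which oxidises succinate to fumarate and is also part of the citric acid cycle, no gene was called after glucagon, the combination or the hybrid against control. Over all genes 21.2%, 20.1% and 24.4% were called. Sdha, the flavoprotein that holds the catalytic site (chr13:74322254-74350280), stood at 381, 199, 278 and 310 normalised CPM in the controls and at 364, 299, 299 and 278 after glucagon. It stood at 201, 219, 194 and 177 after T3 (-0.56 ± 0.17, adjusted p = 0.0248) and at 247, 181, 238 and 205 after the hybrid. Control 2 lay among the T3 libraries. The T3 call ended without control 1 (0.097), T3 1 (0.0531), T3 3 (0.065) or T3 4 (0.0744), and with library totals (0.145).

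Against glucagon the hybrid called 4 of the 77 genes (1 higher and 3 lower, beside 25.2% of all genes), and 2 of them were in complex II. Sdha was lower by -0.51 ± 0.17 (adjusted p = 0.0279) and Sdhc, a membrane anchor, by -0.49 ± 0.16 (0.03), from 352, 327, 358 and 329 after glucagon to 258, 223, 237 and 255 after the hybrid. Neither gene's glucagon and hybrid libraries overlapped. Sdhb, the iron-sulfur subunit, differed by -0.38 ± 0.17 (0.107) and Sdhd, the other anchor, by -0.08 ± 0.17 (0.776). Ndufs7, an iron-sulfur subunit of complex I, stood at 277, 259, 201 and 246 after glucagon and at 171, 140, 179 and 182 after the hybrid (-0.55 ± 0.19, 0.0399). With library totals none of these 3 was called lower (adjusted p = 0.662, 0.766 and 0.637), and the 14 genes called were all higher in the hybrid group. Among all genes 5408 were then called, with a median change of 0.44, beside 3255 and -0.0007 in the main fit. With the lane as a block 7 of the 77 were called (1 higher, 6 lower), and on the compared groups alone 10. These 2 fits called 3415 and 4162 of all genes. The calls also hung on single libraries: Sdha was lost without glucagon 1 (0.098), hybrid 2 (0.102) or hybrid 4 (0.0747), Sdhc without glucagon 1, 2 or 3 or hybrid 2, 3 or 4 (0.0516 to 0.0873), and Ndufs7 without glucagon 1, 2 or 4 or any one hybrid library (0.0533 to 0.114).

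In complex III, which passes electrons from ubiquinol to cytochrome c, 2 of 8 genes rose after glucagon (beside 9.23% of all genes), 1 fell after T3 (10.6%), 1 rose after the combination (9.23%) and none was called after the hybrid (24.4%). Uqcrfs1, the Rieske iron-sulfur protein (chr13:30540308-30545362), stood at 614, 546, 696 and 603 normalised CPM in the controls and at 1036, 941, 932 and 794 after glucagon. All glucagon libraries lay above all controls (0.59 ± 0.15, adjusted p = 0.00743), and the call held without any one library, but not without control 1, control 2 and glucagon 3 together (0.0725) or on the compared groups alone (0.0615). After T3 it stood at 598, 666, 544 and 492 (-0.10 ± 0.15, 0.688), after the combination at 802, 926, 708 and 755 (0.38 ± 0.15, 0.0787) and after the hybrid at 843, 629, 778 and 652 (0.24 ± 0.15, 0.258). The differences of the combination and the hybrid from glucagon, -0.21 ± 0.15 and -0.35 ± 0.15, were not called (0.332 and 0.0899).

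Of the large core proteins of complex III, Uqcrc1 rose after glucagon (0.50 ± 0.17, adjusted p = 0.0391) and after the combination (0.53 ± 0.17, 0.0318). It stood at 147, 171, 272 and 231 in the controls, 320, 289, 264 and 289 after glucagon and 299, 314, 295 and 276 after the combination. Without control 1 neither was called (0.0901 and 0.0846), nor without control 2 (0.0803 and 0.068); the glucagon call also ended without glucagon 1, 2 or 4 (0.067 to 0.0925) and the combination call without combination 1, 2 or 3 (0.0598 to 0.0699). Uqcrc2 was called lower after T3 (-0.91 ± 0.27, 0.0272), with controls at 245, 90.8, 88.7 and 96.4 and T3 at 61.2, 79.2, 60.2 and 77.5. Without control 1 the T3 change was -0.40 (0.176), and without T3 1 or T3 3 it was not called either (0.0753 and 0.0796). Uqcrc2 shared 24.8% of its stretches of 50 bases with 1 other gene. Uqcrb, the ubiquinone-binding protein, shared 43.4% of its stretches of 50 bases with other genes and stood at 0.483 to 0.963 in the controls, so its level is uncertain.

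In complex IV, which reduces oxygen, 4 of 16 genes rose after glucagon (beside 9.23% of all genes), 2 rose and 1 fell after T3 (7.31% and 10.6%), 3 rose after the combination (9.23%) and 2 rose after the hybrid (11.2%). The summed level of the 16 genes was 1308 to 1388 normalised CPM in the controls, 1723 to 1979 after glucagon, 1435 to 1675 after T3, 1445 to 1756 after the combination and 1541 to 1701 after the hybrid. With TMM no control library reached any treated library, whereas with library totals the controls (1054 to 1464) overlapped glucagon (1444 to 1688). The highest sum, in glucagon 3, included 237 of Cox8b and 27.9 of Cox6a2. After glucagon the complex V sum also lay above every control, with TMM (4657 to 5086 against 2821 to 4011) and with library totals (3903 to 4215 against 2274 to 3805). It did so too after the combination with both scalings (4315 to 4859 and 4121 to 4957). After the hybrid it did so with library totals alone (4093 to 5278). The complex I sum lay above every control after glucagon with TMM alone (4137 to 4447 against 3024 to 3861). With library totals it did so after the combination (3952.5 to 4385) and the hybrid (3893 to 4476), against 3112 to 3603 in the controls. After T3 both sums overlapped the controls. The sums of complexes II and III overlapped the controls with both scalings. No test was run on the sums.

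Cox5b, a zinc-binding subunit of complex IV (chr1:36691449-36693681), was called in all 4 treatments. It stood at 25.9, 22.0, 33.5 and 43.7 in the controls, 49.8, 38.1, 49.4 and 54.5 after glucagon, 42.6, 49.0, 52.6 and 47.8 after T3, 39.5, 49.2, 53.5 and 55.2 after the combination and 50.03, 40.5, 51.7 and 67.6 after the hybrid. Control 4 overlapped each treated group. The hybrid change of 0.75 ± 0.19 (adjusted p = 0.0083) was called without any one library, though not without control 1, control 2 and glucagon 3 together (0.115) or on the compared groups alone (0.0829), while glucagon (0.62 ± 0.19, 0.0286) was lost without control 1 (0.0667), control 2 (0.0705), glucagon 1 (0.0601), glucagon 3 (0.0568) or glucagon 4 (0.0799). T3 (0.62 ± 0.20, 0.0336) was lost without control 1 (0.0931), control 2 (0.0723), T3 2 (0.0618), T3 3 (0.0755) or T3 4 (0.0655), and the combination (0.66 ± 0.19, 0.0213) without control 1 (0.0589), control 2 (0.0534), combination 3 (0.0615) or combination 4 (0.0522). Cox5b shared 25.9% of its stretches of 50 bases with 1 other gene.

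Cox6a1, the liver form of a regulatory subunit (chr5:115345642-115348981), stood at 216, 284, 284 and 337 in the controls and 405, 387, 351 and 387 after glucagon, with no overlap (0.45 ± 0.14, adjusted p = 0.0258); the call ended without control 1 (0.0514), glucagon 1 (0.0625), glucagon 2 (0.0554) or glucagon 4 (0.0517). Cox8a, the liver form of the smallest subunit, stood at 26.3, 47.9, 64.5 and 55.3 in the controls and 73.4, 82.3, 71.2 and 74.3 after glucagon (0.64 ± 0.22, 0.0425). That call ended without control 1 (0.0893), control 2 (0.0575) or any one glucagon library (0.0572 to 0.0962). Cox6b1, which joins the monomers of the dimer, stood at 93.2, 185, 214 and 224 in the controls, at 304, 269, 279 and 246 after T3 (0.62 ± 0.20, 0.0345) and at 229, 273, 287 and 302 after the combination (0.61 ± 0.20, 0.0337). The T3 call ended without T3 1, 2 or 3 (0.0534 to 0.0888) and the combination call without combination 2, 3 or 4 (0.0578 to 0.0782). Ndufa4 was called lower after T3 (-0.46 ± 0.16, 0.0487), a call that ended without control 1 (0.191), control 3 (0.0698) or any one T3 library (0.0769 to 0.125), and with no filter on low counts (0.053).

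Some complex IV subunits have a liver form and a form of heart and skeletal muscle. Per kilobase of transcript, Cox6a2, a muscle form, stood at 0 to 6.53 normalised CPM in the controls, beside 378 to 591 for Cox6a1. Among 20 libraries Cox6a2 was highest in glucagon 3 (27.9 normalised CPM), then in control 2 (4.44), combination 4 (1.67) and hybrid 4 (1.59), the same 4 libraries that had the most muscle markers, and stood at 0.708 or less elsewhere. Cox8b, the muscle partner of Cox8a, stood at 237 in glucagon 3, 47.3 in T3 3 and 32.0 in control 2; T3 3 had 37.8 CPM of summed muscle markers. The changes of Cox6a2 and Cox8b against control after glucagon, 2.50 ± 1.41 and 2.77 ± 1.66, were not called (adjusted p = 0.222 and 0.25). Both hung on single libraries: without control 2 they were 6.09 and 6.07 and called (0.0307 and 0.0491), and without glucagon 3 they were -2.30 and -1.85 and not called (0.299 and 0.46).

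Cox7a1, also known from heart and muscle (chr7:30184144-30186078), stood at 8.29, 5.46, 1.86 and 3.24 in the controls, 8.53, 6.86, 24.5 and 8.05 after glucagon, 7.17, 11.9, 14.4 and 12.3 after the combination and 12.7, 8.76, 11.5 and 10.9 after the hybrid. The hybrid libraries all lay above the controls, and 3 of the 4 hybrid libraries had 28.6 CPM or less of summed muscle markers, while the other 2 groups overlapped the controls. The changes were 1.32 ± 0.41 for glucagon (adjusted p = 0.0282), 1.25 ± 0.41 for the combination (0.0383) and 1.19 ± 0.41 for the hybrid (0.0411). The glucagon call ended without glucagon 3, the library richest in muscle markers (0.70, adjusted p = 0.192), and without control 3 (0.0583) or control 4 (0.0773). Without control 3 or 4 the combination (0.0806 and 0.0963) and the hybrid (0.0976 and 0.108) were not called either, nor were they without combination 2, 3 or 4 (0.0725 to 0.109) or hybrid 1, 3 or 4 (0.0684 to 0.0875). With the lane as a block no one of the 3 was called (0.0613, 0.0529 and 0.0556). Cox7a1 is also known from brown fat. Brown fat markers (4 of 5 summed, Cox7a1 left out) summed to 245 to 428 CPM after glucagon, 72.1 to 169 in the controls, 75.4 to 118 after T3, 61.8 to 91.4 after the combination and 48.2 to 74.7 after the hybrid, with Ucp1 at 0 in every control. The sum includes Ppargc1b, which rose in the 3 groups given T3 or the hybrid, so its genes did not move together. Of the 5 listed markers 4 were tested, Cox7a1 among them. After glucagon 2 were called higher and 0 lower, and after the combination and the hybrid 2 were higher and 1 lower. After T3 1 was higher and 1 lower. The part of brown fat markers in the Cox7a1 result was not tested.

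Cox6b2, known as the testis form of Cox6b1 (chr7:4751792-4753094), was the gene higher in the hybrid than in the glucagon group (2.38 ± 0.77, adjusted p = 0.0275). It stood at 0.597, 0.970, 0.718 and 0.705 normalised CPM after glucagon and at 2.94, 2.9, 5.41 and 4.57 after the hybrid, with 7 to 15 and 49 to 60 counts per library. T3 (6.13, 3.41, 5.31 and 2.56) and the combination (3.55, 1.60, 2.30 and 3.90) also lay above all glucagon libraries. In the controls it stood at 0.588, 0.392 and 0.0754 and, in control 2, at 7.10, and with all libraries no change against control was called (adjusted p = 0.172 to 0.719). Without control 2 it was called higher than control after T3 (3.55, adjusted p = 7.39e-05), the combination (2.92, 0.000307) and the hybrid (3.39, 4.42e-05), and not after glucagon (1.02, 0.175). The call against glucagon ended without glucagon 1 (0.0704), glucagon 3 (0.0589), glucagon 4 (0.0609), hybrid 3 (0.0655) or hybrid 4 (0.0516).

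**Figure D4:**
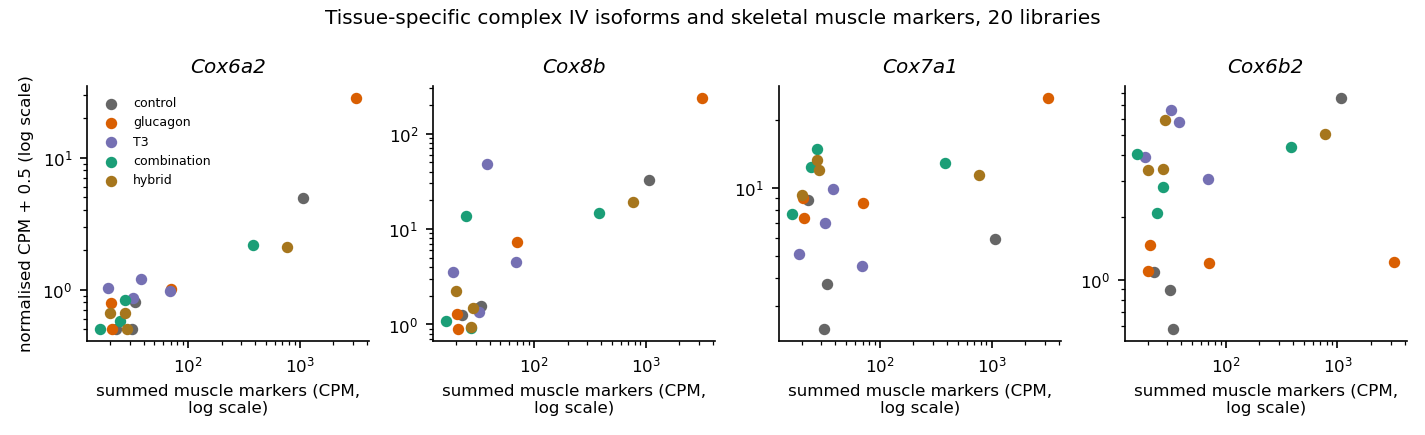
Normalised CPM + 0.5 of 4 complex IV genes against the summed CPM of 18 skeletal muscle markers in 20 libraries (log axes, colours are groups). Cox6a2 is highest in the 4 libraries with the most muscle markers, and Cox7a1 and Cox6b2 also vary among libraries with few of them.

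In complex V, 2 of 12 genes rose after glucagon (beside 9.23% of all genes), none was called after T3 (18%), 3 rose after the combination (9.23%) and 1 rose after the hybrid (11.2%). Atp5d, the delta subunit of the central stalk (chr10:80138632-80145818), stood at 216, 396, 545 and 433 normalised CPM in the controls and at 630, 763, 714 and 783 after glucagon. It stood at 549, 665, 606 and 614 after the combination, also above every control, and at 552, 638, 462 and 560 after T3 and 436, 586, 566 and 633 after the hybrid, both overlapping the controls. The glucagon change was 0.86 ± 0.21 (adjusted p = 0.00509) and was called without any one library, but not on the compared groups alone (0.0732). The combination change of 0.62 ± 0.20 (0.0388) was not called without control 1 (0.0744), combination 2 (0.0823), combination 3 (0.0717) or combination 4 (0.0595). Atp5d overlaps the gene Cbarp, and the labels do not give the strand setting of the counting.

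Atp5o, the subunit that confers oligomycin sensitivity in the peripheral stalk, stood at 55.4, 91.5, 109 and 125 in the controls, 172, 129, 134 and 141 after glucagon and 153, 135, 135 and 131 after the hybrid, both above every control. Atp5o shared 34% of its stretches of 50 bases with 2 other genes. It was called after glucagon (0.59 ± 0.19, adjusted p = 0.0289), the combination (0.58 ± 0.19, 0.0325) and the hybrid (0.54 ± 0.19, 0.0408). Without control 1 these became 0.0542, 0.0737 and 0.0945. Glucagon was lost too without glucagon 1 (0.0904) or glucagon 4 (0.0507), the combination without control 2 (0.052) or combination 1, 2 or 3 (0.0597 to 0.0873), and the hybrid without control 2 (0.0563), any one hybrid library (0.052 to 0.098), or with the lane as a block (0.0528). Atp5e, the epsilon subunit, rose after the combination (0.56 ± 0.18, 0.0324; 167, 176, 165 and 153 against 82.4, 143, 113 and 109), a call that ended without control 1 (0.0956), control 4 (0.0632) or combination 1, 2 or 3 (0.0652 to 0.0754).

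Atp5s, apart from the complexes, had the largest called fall among the 77 (chr12:69724950-69744660). It stood at 7.27, 6.57, 5.29 and 6.26 normalised CPM in the controls, 3.40, 3.30, 4.45 and 4.13 after glucagon, 2.49, 2.95, 3.20 and 2.32 after the combination and 2.56, 3.29, 2.71 and 3.08 after the hybrid. T3 stood at 5.27, 5.11, 4.36 and 5.27, so that all 16 treated libraries lay below all controls. The fall was -0.74 ± 0.18 for glucagon (adjusted p = 0.00536), -1.21 ± 0.18 for the combination (9.2e-05) and -1.13 ± 0.18 for the hybrid (0.000137). Each of these was called without any one library, and on the compared groups alone the glucagon call ended (0.0869). The T3 change of -0.35 ± 0.18 was not called (0.185), and the combination differed from glucagon by -0.47 ± 0.18 (0.0681). Cox4nb, which overlaps Cox4i1 at its start, was called after the hybrid (0.43 ± 0.15, 0.0418), but not without control 2 (0.0641), control 4 (0.129), hybrid 1 (0.102) or hybrid 3 (0.0747), nor with the lane as a block (0.0506).

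Among the treatments themselves the subunits differed little. Between the combination and glucagon no gene of the 77 was called in edgeR, beside 22.5% of all genes; 4 had an unadjusted p under 0.05, DESeq2 called 1, Cox6b2, and on the compared groups alone 2 were called. Between the hybrid and the combination none was called, beside 0.031% of all genes (4 genes), although the hybrid libraries lay below all combination libraries in 4 of the 77 (beside 4.08% of all genes) and above them in none (3.22%), with 2 at an unadjusted p under 0.05 and none in DESeq2. The test of whether the combination equals both single-hormone changes added up called none, beside 3.73% of all genes, with 4 at an unadjusted p under 0.05 and none in DESeq2. Across control, glucagon, combination and hybrid together, the groups that share lanes 1 to 4, 9 of the 77 differed in edgeR beside 38.3% of all genes: Atp5s, Ndufc1, Ndufa8, Ndufv1, Atp5d, Cox5b, Uqcrfs1, Atp5o and Sdha.

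Single libraries moved the counts. Without control 3, glucagon called 19 (17 higher), T3 15 (9 higher), the combination 19 (17 higher) and the hybrid 13 (10 higher), and the departure from additivity was called for 1, Atp5d. Calls over all genes rose as well, from 2732 to 3760 for glucagon and from 2317 to 3179 for T3. They rose from 2598 to 3552 for the combination and from 3144 to 3619 for the hybrid. Glucagon called 7 without glucagon 1 and 7 without glucagon 4, where 2284 and 2041 of all genes were called. T3 called 1 without T3 1 or without T3 3, and 2 without T3 2 or without T3 4. Over all genes T3 then called 1528, 1578, 1694 and 1547. The combination called 4 without combination 2 and 3 without combination 3, and the hybrid called 4 without hybrid 1 or without hybrid 3 and 11 without control 2. Among all genes these fits called 1983 and 1855 for the combination, and 2769, 2333 and 3719 for the hybrid. Between hybrid and glucagon 0 were called without glucagon 1, 2 without glucagon 3 or glucagon 4, and 1 without hybrid 2, hybrid 3 or hybrid 4. Among all genes 2641, 2718, 2695, 2632, 2648 and 2768 were then called, beside 3255 in the main fit. Across the 4 groups that share lanes 17 were called without control 3, where calls over all genes rose from 4947 to 5954. Without control 1, glucagon called 11 higher and 1 lower, T3 3 higher and none lower, the combination 5 higher and 1 lower and the hybrid 11 higher and 1 lower. Over all genes 2691, 1592, 2323 and 3001 were called without control 1. Only 1 of the 7 genes called after T3 was still called then, Cox6b1, and all 4 genes called lower were lost. Without control 2 and glucagon 3 together, glucagon called 6 higher and 1 lower, T3 3 and 6, the combination 5 and 2, and the hybrid 6 and 5. The calls that ended then were, after glucagon, Uqcrc1 (0.101), Cox5b (0.134), Cox8a (0.0851), Cox7a1 (0.2) and Atp5o (0.067), and after T3 Cox5b (0.0886). After the combination they were Ndufa1 (0.0703), Ndufv1 (0.0594), Uqcrc1 (0.0868), Cox5b (0.0697), Cox6b1 (0.0527), Atp5d (0.0635) and Atp5o (0.0656), and after the hybrid Atp5o (0.0723) and Cox4nb (0.0856). Without control 1, control 2 and glucagon 3 together these were 6 and 1, 4 and 1, 5 and 1, and 9 and 4. The correlation across the 77 genes between the change against control and transcript GC content was 0.31 for glucagon, 0.30 for T3, 0.30 for the combination and 0.26 for the hybrid, and -0.08 for the combination against glucagon. Across 11465 genes the same correlations were 0.21, 0.29, 0.24, 0.14 and 0.01. Macrophage markers (14 of 15 measured, none at 0) summed to 457 to 560 CPM after glucagon, 625 to 1549 in the controls, 1717 to 2290 after T3, 1339 to 1503 after the combination and 1472 to 1936 after the hybrid. In whole liver fewer cells of a type and less RNA per cell cannot be told apart, and the part of GC content and of cell makeup in the changes was not tested.

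Of 22 tested regulators of the subunit genes, 2 rose and 3 fell after glucagon (22.7%, beside 21.2% of all genes called), 3 rose and 4 fell after T3 (31.8% beside 18%), 4 rose and 4 fell after the combination (36.4% beside 20.1%) and 5 rose and 4 fell after the hybrid (40.9% beside 24.4%). Ppargc1a, the coactivator of mitochondrial and gluconeogenic genes, stood at 13.5, 11.2, 9.41 and 8.97 normalised CPM in the controls and at 200, 190, 166 and 156 after glucagon. After T3 it stood at 9.07, 6.16, 5.19 and 8.47, after the combination at 16.9, 15.3, 11.5 and 12.7 and after the hybrid at 18, 25.5, 19.5 and 18.7. The glucagon libraries stood far above all others. The change in the combination fell short of both single-hormone changes added up, with a departure of -3.07 ± 0.27 (adjusted p = 1.49e-06). The fall after T3 (-0.58 ± 0.19, 0.0429) was lost without control 1 (0.146), control 2 (0.0681), T3 2 (0.127) or T3 3 (0.154).

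Esrra, which codes for estrogen-related receptor alpha, rose after the combination and the hybrid, and Ppargc1b, a coactivator related to Ppargc1a, rose in the 3 groups given T3 or the hybrid. Esrra stood at 37.2, 42.9, 94.8 and 45.4 in the controls, 160, 142, 154 and 120 after the combination (1.39 ± 0.23, adjusted p = 0.000303) and 148, 92.3, 132 and 126 after the hybrid (1.18 ± 0.23, 0.000988). After glucagon (67.6 to 90.8) and T3 (64.8 to 88.5) it was not called, except without control 3, where both were (0.00108 and 0.00144). Ppargc1b rose by 1.18 ± 0.28 after T3 (0.00803), 1.65 ± 0.28 after the combination (0.000356) and 1.32 ± 0.28 after the hybrid (0.00197). Its difference of 0.66 ± 0.28 after glucagon was not called (0.0976), except without control 3 (0.00594). Thrb, a thyroid hormone receptor, fell by 1.02 after the combination and by 1.14 after the hybrid on the log2 scale. Nrf1, whose product binds the NRF1 motif, was not called against control in any treatment (0.17 to 0.30, adjusted p = 0.224 to 0.516). Tfam, which packages mitochondrial DNA, was called lower after glucagon (-0.58 ± 0.19, 0.0317), but not without control 1 (-0.27, 0.143) or glucagon 1, 2 or 3 (0.0753 to 0.0893).

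**Figure D5:**
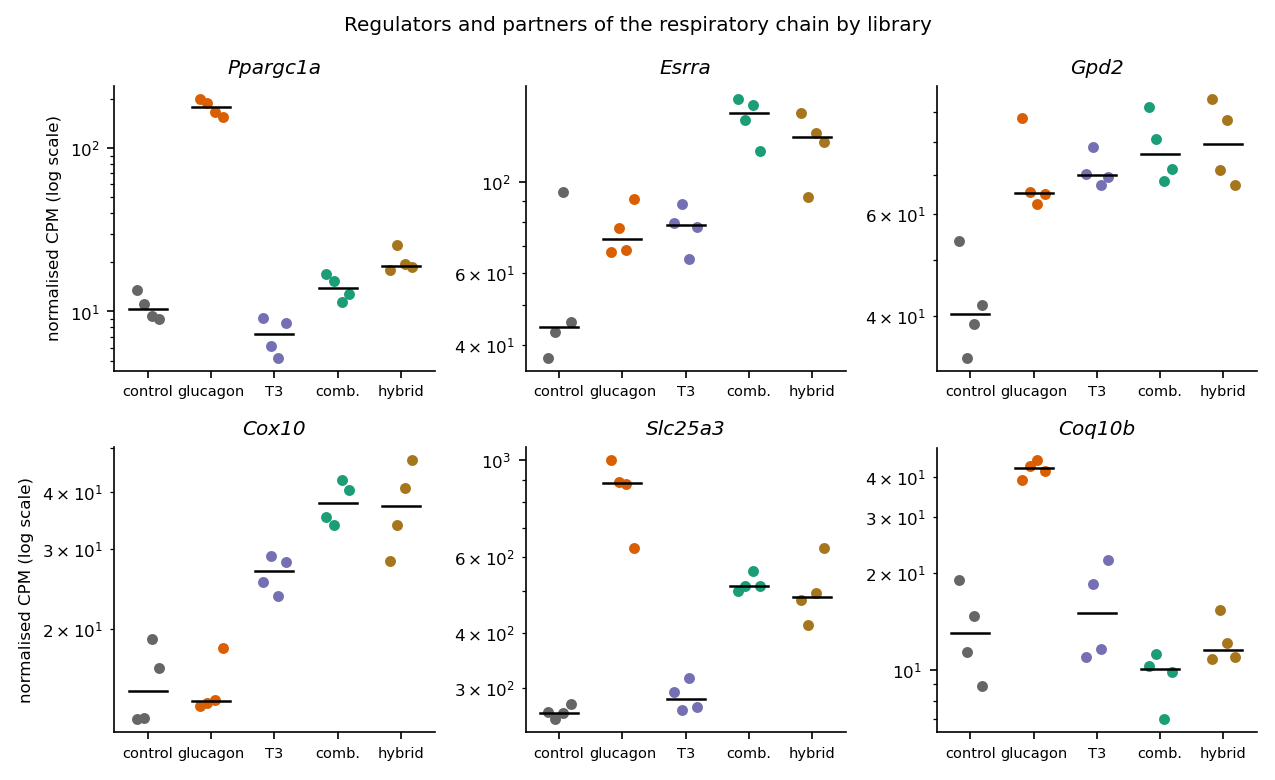
Normalised CPM (log scale) of 6 genes that regulate or supply the respiratory chain in each library (4 points per group, black lines are medians). Ppargc1a, Slc25a3 and Coq10b are highest after glucagon, Cox10 is raised in the 3 groups given T3 or the hybrid, the median of Esrra is highest in the combination and hybrid groups, and Gpd2 lies above all controls in every treated group.

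Among 24 genes of electron entry and carriers, 4 rose and 1 fell after glucagon (20.8%, beside 21.2% of all genes called), 4 rose and 3 fell after T3 (29.2% beside 18%), 4 rose and 3 fell after the combination (29.2% beside 20.1%) and 4 rose and 5 fell after the hybrid (37.5% beside 24.4%). Gpd2, the mitochondrial glycerol phosphate dehydrogenase that feeds electrons to ubiquinone, stood at 53.9, 33.8, 38.7 and 41.9 normalised CPM in the controls and between 62.5 and 94.9 in the 16 treated libraries, with no overlap. It rose by 0.74 ± 0.16 after glucagon, 0.76 ± 0.16 after T3, 0.89 ± 0.16 after the combination and 0.93 ± 0.16 after the hybrid (adjusted p = 0.00267, 0.00347, 0.000597 and 0.000322), with no one library deciding a call. Coq10a, a ubiquinone-binding protein, and Aifm2, a ubiquinone reductase, also rose in all 4 treatments (1.01 to 1.29 and 0.80 to 1.16). Adck3, a kinase-like protein needed for ubiquinone synthesis, fell by 1.45 after T3, 1.06 after the combination and 1.72 after the hybrid on the log2 scale. Coq10b rose after glucagon (39.0, 43.3, 45.0 and 41.7 against 19.1, 11.3, 14.7 and 8.90; 1.64 ± 0.24, 4.17e-05) and stood at 6.98 to 11.2 after the combination. Cycs, which codes for cytochrome c, stood at 0.226 to 1.39 in every library and was not called. The sequence that Cycs shares with other genes was not examined, so its level is uncertain. Ndufab1, an acyl carrier protein that is also a complex I subunit and whose symbol the pattern does not match, was called after the hybrid (0.99 ± 0.33, 0.0313), but not without control 3 (0.0538), control 4 (0.0916), hybrid 1 (0.102) or hybrid 3 (0.0692).

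Of 31 tested assembly factors, 1 rose and 3 fell after glucagon (12.9%, beside 21.2% of all genes called), 1 rose and 5 fell after T3 (19.4% beside 18%), 1 rose and 5 fell after the combination (19.4% beside 20.1%) and 4 rose and 7 fell after the hybrid (35.5% beside 24.4%). Cox10, which makes the heme of complex IV, stood at 12.7, 12.8, 19.0 and 16.4 in the controls and 13.5, 13.8, 14 and 18.2 after glucagon. It stood at 25.4, 29.0, 23.6 and 28.1 after T3 (0.80 ± 0.17, adjusted p = 0.0037), at 35.2, 33.8, 42.5 and 40.4 after the combination (1.32 ± 0.17, 2.07e-05) and at 28.2, 33.8, 40.8 and 46.8 after the hybrid (1.3 ± 0.17, 1.83e-05). No library of these 3 groups overlapped the controls or glucagon. Sdhaf1, an assembly factor of complex II, stood at 19.4, 12.5, 14.7 and 18.2 in the controls and 6.27, 6.47, 6.32 and 7.75 after glucagon (-1.27 ± 0.18, 3.76e-05), and rose from glucagon to the combination (1.14 ± 0.18, 0.00012) and to the hybrid (1.04 ± 0.18, 0.000284). Cox19, a copper-handling factor of complex IV, fell by 0.87 after T3, 1.22 after the combination and 1.28 after the hybrid on the log2 scale.

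Among 13 tested genes of metabolite carriers, porins, uncoupling proteins and the ATP synthase inhibitor, 1 rose and 1 fell after glucagon (15.4%, beside 21.2% of all genes called), 2 rose after T3 (15.4% beside 18%), 2 after the combination (15.4% beside 20.1%) and 4 after the hybrid (30.8% beside 24.4%). Slc25a3, the carrier that brings phosphate to ATP synthase, stood at 264, 254, 262 and 275 normalised CPM in the controls, 999, 890, 882 and 630 after glucagon (1.69 ± 0.15, adjusted p = 1.14e-07), 501, 513, 556 and 513 after the combination (0.98 ± 0.15, 0.000119) and 476, 417, 494 and 628 after the hybrid (0.93 ± 0.15, 0.000147). T3 stood at 294, 266, 316 and 271. Every library of the 3 groups that received glucagon or the hybrid lay above every control. Slc25a30, a carrier of the uncoupling protein family, rose by 2.32 ± 0.47 after the combination (0.00167) and 2.01 ± 0.47 after the hybrid (0.00371).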

How the data were processed

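The deposited files hold whole-number read counts for each gene symbol, with no normalization; the submitters' processing notes name HTSeq and the mm10 build, and extraction was by a Qiagen kit and strand synthesis by Lexogen reagents per the labels' protocols. No source used here gives the aligner, annotation, strand setting or HTSeq version. All 13319 symbols were listed in every library.

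Tests used edgeR 4.0.16 in R 4.3.3: filterByExpr by group (minimum count 10, minimum total 15; 12907 genes kept, 412 dropped), TMM factors and a quasi-likelihood fit of 20 libraries with 5 group means (15 residual degrees of freedom), with p adjusted by Benjamini-Hochberg over all genes tested. Mice are the replicates. The tool was tested on simulated data. Libraries of a group differed far beyond sampling noise (chi-square per degree of freedom of 18.6 or more), so none was counted as a duplicate. This value was 57.1 to 289 between controls and 18.6 to 66.4 between libraries of the other groups. The pooled spread can therefore understate that of the controls. Log2 deviations of single libraries used a pseudocount of 0.5 CPM.

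The members and the lists of partner and marker genes were chosen with earlier results of these data known. Named genes are every member called in a comparison, up to 3 per complex with the smallest p over control, glucagon, combination and hybrid, the isoform pairs, and of each partner list up to 5 called genes by smallest p, with Ppargc1a, Ppargc1b, Esrra, Tfam, Nrf1, Gpd2 and Cycs; not all are described. Replicate number marks lanes 1 to 4 in 16 libraries. Over pairs of groups, same-lane libraries had correlations of -0.318 to 0.462 after removal of group means, and the lane block was fitted as an alternative. The other alternatives were DESeq2 1.42.0, size factors by RLE, testing without the low-count filter, a fit of the compared groups alone, each library left out, and control 2 and glucagon 3 left out together; library totals in place of TMM and leaving out control 1 as well were chosen after seeing the data. Positions are from GENCODE on GRCm38 (76 of 77 genes had a single position, Atp5o did not).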

Additional observations from a re-analysis of the deposited data

Results flagged for a closer look

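In 23 genes called in some comparison and the 5 summed complexes, 140 groups of 4 libraries were examined for a library far from its group, and 9 had one; chance flags about 1 in 20 groups. In the controls, control 1 stood high for Ndufb6 (102 normalised CPM) and Uqcrc2 (245), and control 2 stood high for Cox6b2 (7.10) and low for the summed complex I genes (3024). After glucagon, glucagon 3 stood high for Cox7a1 (24.5) and glucagon 2 low for Ndufc1 (6.60). Combination 2 stood high for Ndufv1 (254), hybrid 1 high for Atp5o (153) and hybrid 4 high for Ndufa8 (210).

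The combination departed from both single-hormone changes added up (edgeR, interaction contrast) in 4 partner genes and in none of the subunits. The departure was -3.07 for Ppargc1a (adjusted p = 1.49e-06), -2.36 for Coq10b (0.000224), -1.3 for Pprc1 (0.0234) and -0.83 for Slc25a3 (0.0286). Pprc1 was lost without T3 4 (0.0597) and with library totals (0.0791), and Slc25a3 was lost under several of the alternatives, among them library totals (0.0986).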

How the results depend on the processing

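No called change of a named gene reversed its direction under the alternatives that were run. Some changes that were not called did. After glucagon, for example, Cox6a2 went from 2.50 to -2.30 and Cox8b from 2.77 to -1.85 without glucagon 3, and Cox6b2 from -1.50 to 1.02 without control 2. For the genes described by complex, 903 of the comparisons under an alternative kept their side of the threshold and, where called, their direction. Another 224 lost the call and 18 gained one. For partner genes these were 2465, 409 and 17. The 903 and the 2465 pool called changes with changes that were not called. Among the latter are Cox6a2, Cox6b2, Cox8b and Cox7a1 in comparisons where they were not called. Only a called change can lose its call, so the share of calls lost was higher than these totals show. With each library left out in turn, the calls among the 77 genes ranged from 7 to 19 for glucagon against control, 1 to 15 for T3, 3 to 19 for the combination, 4 to 13 for the hybrid, 0 to 0 for the combination against glucagon, 0 to 3 for the hybrid against glucagon, 0 to 0 for the hybrid against the combination, 0 to 1 for the departure from additivity and 7 to 17 over the 4 groups that share lanes. Calls among all genes moved as well. They ranged from 1988 to 3760 for glucagon, 1528 to 3179 for T3, 1855 to 3552 for the combination and 2333 to 3719 for the hybrid. For the hybrid against glucagon they ranged from 2627 to 2768, and over the 4 groups from 4298 to 5954. With the lane as a replicate block, T3 called 12 (6 higher, 6 lower) and the hybrid against glucagon 7, beside 2535 and 3415 of all genes. No T3 library is in a blocked lane, so the block does not separate T3 from lane 5. The block otherwise ended the calls of Cox7a1 after glucagon, the combination and the hybrid and of Atp5o and Cox4nb after the hybrid, and it moved no other count by over 1.5 times.

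Fitted on the compared groups alone, glucagon called 0, T3 0, the combination 1, the hybrid 3, the combination against glucagon 2 and the hybrid against glucagon 10. With library totals these were 6 for glucagon, 20 for the combination, 26 for the hybrid, 4 for the combination against glucagon, 14 for the hybrid against glucagon and 27 over the 4 groups. DESeq2 called 11 for the hybrid, 1 for the combination against glucagon, 7 for the hybrid against glucagon and 17 over the 4 groups (over all genes 3475, 3204, 3565 and 5583). Without control 2 and glucagon 3 together the counts were 7, 7 and 11 for glucagon, the combination and the hybrid and 1 for the combination against glucagon (over all genes 2182, 2811, 3681 and 2781). Without control 1 as well they were 7, 6 and 13, with 2 for the combination and 9 for the hybrid against glucagon (over all genes 1998, 2144, 3517, 3651 and 4026). The cause was not tested. Few counts limit the precision of some genes: Cycs had 3 to 26 per library and Uqcrb 5 to 20.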
